A study of Mus musculus with 4 samples.

Results

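The members described here are 51 genes of the DNA damage response: 37 damage sensors and repair genes, and 14 targets of the transcription factor p53. They were taken by name from the non-control probes of a mouse expression array on which 37325 genes were represented. The rule that took them used no measured value, but the members were chosen with earlier results of these data known. All 51 were on the array. The arrays measured hippocampal RNA of mice labelled hetero-KO for Rp58, a zinc finger transcriptional repressor whose current symbol is Zbtb18, and of wild-type (WT) mice. The 4 groups were WT at 4 months, Rp58 hetero-KO at 4 months, WT at 18 months and Rp58 hetero-KO at 18 months. The sample descriptions give the older mice a range of 12 to 18 months. The strain, the sex and the promoter or method behind the knockout allele are not stated in the labels, and no other allele or agent is named for any group. Total RNA of 3 samples per group was pooled before labelling with Cy3, so each group is 1 array and the spread between animals was not measured.

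When DNA breaks or carries damaged bases, the kinases ATM, ATR and DNA-PK signal the lesion, and dedicated pathways repair it: base excision repair for small base lesions, nucleotide excision repair for bulky ones, and end joining or homologous recombination for double-strand breaks. The signal stabilises p53, which is encoded by Trp53 and switches on genes that halt the cell cycle, favour repair or promote apoptosis. In neurons, which no longer divide, base excision repair and end joining carry most of this load, while much of the recombination machinery is made mainly by dividing cells.

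Levels below are the probe's background-corrected signal over the 75th percentile of that array, and a gene is represented by its brightest probe. A level is therefore a ratio on a linear scale and was compared between arrays, not between genes. The 75th percentile lay between 1714 and 2111 intensity units, 77.9% to 81.9% of spots were well above background, and no spot was saturated. All 4 arrays lay on 1 slide with 1 scan time. Of the members, 50 were well above background on all 4 arrays, and Eda2r was so on 3. The scanner software's own error estimate gave the log2 difference of a member between a pair of arrays a median error of 0.20. That estimate covers the array and not the animals. Tests came from limma with genotype and age as additive terms over 29088 genes, which leaves 1 residual degree of freedom and counts the genotype-by-age difference as error. The p-values describe these pooled arrays. Differences within one age or within one genotype are single differences between 1 array and 1 array, with no test.

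The single probe for Zbtb18, the targeted gene, had a level of 17.5 in WT and 15.2 in the array labelled hetero-KO at 4 months. At 18 months it was 18.9 in WT and 21.4 in the array labelled hetero-KO. The probe was thus lower with the hetero-KO label at 4 months and higher at 18 months, by 1.15-fold and 1.13-fold. Where the probe lies relative to the deleted part of the gene is not stated in the labels, so it does not check the label, and the arrays are named by their labels throughout.

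Trp53, which encodes p53 itself, had levels of 0.481 in WT and 0.448 in the array labelled hetero-KO at 4 months, and the 18-month levels were 0.452 and 0.431. The 4 values lay close together, and both the genotype difference (log2 -0.09 ± 0.06, SE) and the age difference (log2 -0.07 ± 0.06) missed the threshold in limma with Benjamini-Hochberg adjustment (adjusted p = 0.620 and 0.553). Mdm2, the ubiquitin ligase that degrades p53 and is itself a p53 target, had levels of 6.66 and 6.59 at 4 months and of 6.90 and 6.95 at 18 months, WT first. Its arrays overlapped between genotypes and its genotype difference was log2 -0.002 ± 0.042.

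Among the p53 targets, Cdkn1a, Phlda3 and Zmat3 were higher with the hetero-KO label at both ages, and Perp and Bbc3 were lower. These 5 had an unadjusted p under 0.05. None of the 14 targets passed the limma test after adjustment over all genes. The same was true of the 37 sensors and repair genes, while of all genes tested 0.0103% were called higher and 0% lower. With no adjustment, a p under 0.05 was reached by 3 targets upwards and 2 downwards, and by 1 repair gene upwards and 0 downwards. In all genes tested the shares at that p were 5.16% higher and 6.31% lower.

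Cdkn1a encodes p21, the inhibitor of cyclin-dependent kinases through which p53 halts the cell cycle. Its level was 0.243 in WT and 0.293 in the array labelled hetero-KO at 4 months, and the 18-month levels were 0.226 and 0.344. Both hetero-KO arrays lay above both WT arrays. The genotype difference over both ages was log2 0.44 ± 0.11 (SE), or 1.36-fold, with an adjusted p of 0.323 in limma with Benjamini-Hochberg adjustment. Over the mean of its 3 probes the value was log2 0.14, where the dimmest, well above background on 1 array, gave log2 -0.47. The difference at 18 months was log2 0.61 and that at 4 months log2 0.27. The remaining probe, also well above background on all 4 arrays, gave log2 -0.18 at 4 months, 1.1 at 18 months and 0.46 over both ages. It shared the direction of the brightest probe at 18 months and not at 4 months.

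Gadd45a, a p53-induced stress gene that takes part in nucleotide excision repair and active DNA demethylation, was counted among the repair genes and had a similar order of arrays. Its level was 0.212 and 0.271 at 4 months and 0.211 and 0.307 at 18 months, WT first. The WT arrays were nearly equal and both hetero-KO arrays lay above them, by log2 0.35 and 0.54. The fit gave log2 0.45 ± 0.09 with an adjusted p of 0.258. The other Gadd45a probe was well above background on 1 array, and averaging both probes turned the fitted difference to log2 -0.51.

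Perp, a membrane protein of desmosomes that p53 induces during apoptosis, was the target with the smallest adjusted p. Its level was 1.44 in WT and 1.04 in the array labelled hetero-KO at 4 months, and the 18-month levels were 1.66 and 1.09. Both hetero-KO arrays lay below both WT arrays, by log2 -0.47 and -0.61. Over both ages the difference was log2 -0.54 ± 0.06 with an adjusted p of 0.144, the lowest of the 51 members in the genotype fit. Bbc3, which encodes the pro-apoptotic BH3-only protein PUMA, had levels of 0.965 and 0.726 at 4 months and of 1.0 and 0.917 at 18 months. The array labelled hetero-KO at 4 months stood below the other 3 arrays, and the difference was log2 -0.41 at 4 months against -0.13 at 18 months (adjusted p over both ages 0.397).

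**Figure D1:**
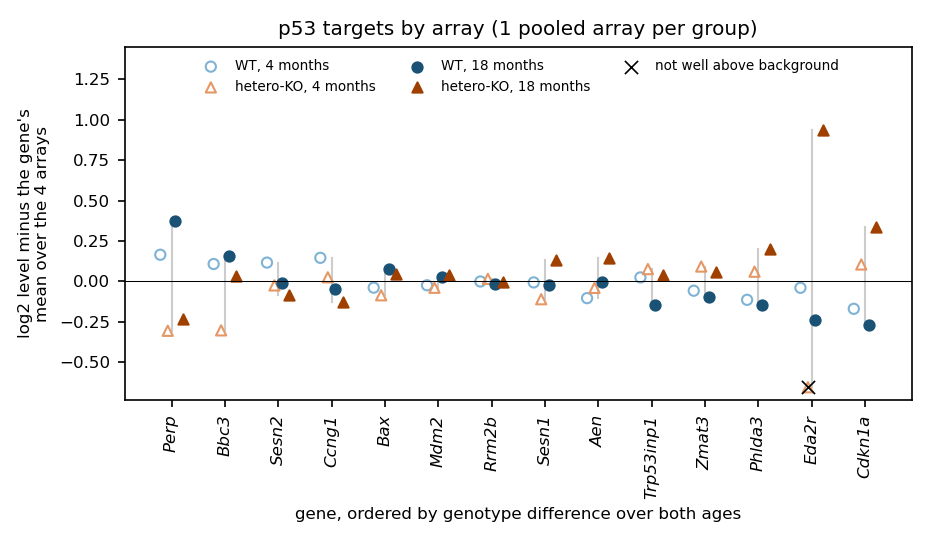
The vertical axis gives each p53 target's log2 level minus its mean over the 4 arrays, with 1 point for each pooled array and genes ordered along the horizontal axis by their genotype difference. Perp has both hetero-KO arrays below both WT arrays, Cdkn1a, Phlda3 and Zmat3 have them above, and the cross marks the Eda2r array that was not well above background.

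Phlda3, a repressor of Akt signalling induced by p53, had levels of 3.50 and 3.95 at 4 months and of 3.42 and 4.36 at 18 months, WT first. Both hetero-KO arrays were higher, and the fit gave log2 0.26 ± 0.06 with an adjusted p of 0.309. The authors' deposited value table gave log2 0.05, but its 18-month columns match none of the arrays analysed here. Zmat3, a zinc finger RNA-binding protein and p53 target, had levels of 3.34 and 3.71 at 4 months and of 3.26 and 3.63 at 18 months. Its difference was nearly the same at both ages, log2 0.15 and 0.15, with an adjusted p of 0.379.

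Sesn1, a sestrin that restrains mTORC1 and oxidative stress, had levels of 5.20 and 4.84 at 4 months and of 5.16 and 5.74 at 18 months. Its order by genotype turned between the ages, log2 -0.10 against 0.15. Trp53inp1, a p53-induced protein that acts in apoptosis and autophagy, had levels of 0.801 and 0.830 at 4 months and of 0.713 and 0.811 at 18 months. The array of WT at 18 months stood below the other 3. Ccng1, which encodes cyclin G1 and feeds back on p53 through Mdm2, had levels of 1.99 and 1.83 at 4 months and of 1.74 and 1.65 at 18 months. It was lower with the hetero-KO label at both ages, log2 -0.12 and -0.08, and lower at 18 months in both genotypes.

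Eda2r, a receptor of the tumour necrosis factor receptor family and a p53 target on the X chromosome, was near the detection limit and is named although the rule for named members takes only genes measured on all 4 arrays. Its level was 0.00968 in WT and not well above background in the array labelled hetero-KO at 4 months, and the 18-month levels were 0.00842 and 0.0190. The array labelled hetero-KO at 18 months was the highest, 2.26-fold above WT at that age and at least 2.83-fold above the array labelled hetero-KO at 4 months. At least N-fold here sets the bright array against the lowest signal well above background on the dim array, or the dim probe's own signal where that is higher. The 18-month difference fell from log2 1.17 to 0.17 with another background correction (normexp) and to 0.18 over the mean of its probes.

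By the size of single differences, no member reached 1.5-fold between genotypes at 4 months among 50 measured on both arrays. At that age 1.8% of all genes reached it upwards and 2.71% downwards. At 18 months 2 of 51 members were at least 1.5-fold higher with the hetero-KO label, Cdkn1a and Eda2r, against 2.11% of all genes. Perp alone was at least 1.5-fold lower, against 2.64%. The sign of the genotype difference was shared by both ages in 35 of 50 members, or 70.0%, where all genes gave 61.8%. It was shared in 11 of 13 targets measured on all arrays and in 24 of 37 sensors and repair genes. The median genotype difference in the fit was log2 0.02 over the 14 targets, -0.002 over the 37 sensors and repair genes and -0.02 over all genes.

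**Figure D2:**
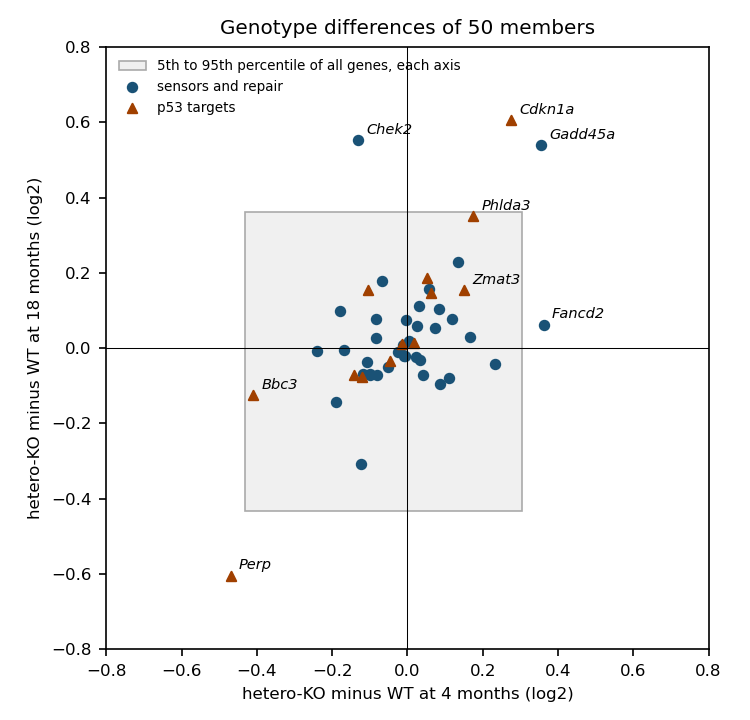
Each point is 1 of the 50 members measured on all 4 arrays, with the log2 difference of hetero-KO minus WT at 4 months on the horizontal and at 18 months on the vertical axis. The grey box spans the 5th to the 95th percentile of all genes on each axis; named genes had an unadjusted p under 0.05 in the genotype fit or lie outside the box, with Cdkn1a and Gadd45a at the upper right and Perp at the lower left.

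Marker genes of other cells and states also differed between the labels, some in the same direction at both ages and some not. The 12 glucocorticoid-induced genes listed for the comparison, which do not include any member, were higher with the hetero-KO label for 10 of 12 at 4 months and 12 of 12 at 18 months. Their summed level was 188 in WT and 199 in the hetero-KO array at 4 months, and 209 and 259 at 18 months. All 12 choroid plexus markers were lower with the hetero-KO label at both ages, with summed levels of 112 and 90.2 at 4 months and of 131 and 104 at 18 months. The 11 striatal markers measured on all arrays were all higher in the hetero-KO array at 4 months, with summed levels over the list of 21.7 and 51.9. At 18 months 4 of the 11 were higher and 7 lower, with sums of 21.7 and 23.1. Microglial markers were higher with the hetero-KO label for 10 of 12 at 4 months (sums 51.2 and 53.6) and 12 of 12 at 18 months (73.0 and 84.4). Endothelial markers were higher for 0 of 10 at 4 months and 5 of 10 at 18 months, with sums of 22.3 and 19.9, then 19.9 and 22.03. Red blood cell markers were higher for 0 of 6 and then 6 of 6 (77.4 and 66.1, then 85.6 and 106), and meningeal fibroblast markers for 0 of 10 and then 8 of 10 (16.2 and 13.6, then 10.5 and 13.2). Every marker of these lists was well above background on every array, except Isl1 of the striatal list in the array labelled hetero-KO at 18 months. Of 5 sex-linked genes, the Y-linked Ddx3y, Uty and Eif2s3y were not well above background in the array labelled hetero-KO at 4 months. Xist was well above background in both genotypes at 4 months and in neither at 18 months. The remaining gene was measured on all 4 arrays, with genotype differences of log2 -0.06 at 4 months and 0.04 at 18 months. The part of these differences in the values of Cdkn1a, Gadd45a, Perp and the other members was not tested. In pooled tissue, fewer cells of a type and less RNA per cell cannot be told apart.

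The promoters of the p53 targets were set beside these values because p53 acts through a pair of decamers, each called a p53 half-site, lying next to each other or a few bases apart. The table of RefSeq promoters (GRCm38.p6) holds 250 bases before to 50 bases after each annotated start. The p53 half-site consensus was searched on both strands, and it reads the same on each. It occurred in 8.36% of the 32851 promoters in the table, and a pair with at most 13 bases between its half-sites in 0.0731%. Among the targets, 10 had a promoter in the table, and 6 of these 10 had a half-site: Cdkn1a, Mdm2, Aen, Bax, Ccng1 and Sesn1. Of 29 sensors and repair genes with a promoter, 4 had one, namely Trp53, Neil1, Polk and Gadd45a. Cdkn1a was the only member with a pair, in the promoter of 1 of its 2 annotated starts. Its half-sites begin 73 and 51 bases before that start and are separated by 12 bases. The decamer that directly follows the second of them misses the consensus at its first base alone, so the search did not count it. The windows below, 5′ to 3′ on the strand of the gene with half-sites in capitals, show some of the members with a half-site. Cdkn1a and Gadd45a were higher with the hetero-KO label, Ccng1 was lower, and Mdm2 and Sesn1 showed no shared direction.
Cdkn1a, chr17:29090896-29090947: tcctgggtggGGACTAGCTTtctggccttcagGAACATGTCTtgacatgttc
Gadd45a, chr6:67037428-67037457: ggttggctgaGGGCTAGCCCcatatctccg
Mdm2, chr10:117710925-117710954: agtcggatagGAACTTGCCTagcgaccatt
Sesn1, chr10:41887256-41887285: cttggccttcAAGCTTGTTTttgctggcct
Ccng1, chr11:40755452-40755481: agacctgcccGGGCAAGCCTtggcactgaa
Among the members shown, a single half-site stood in promoters of genes that were higher (Gadd45a), lower (Ccng1) and of no shared direction (Mdm2, Sesn1) with the hetero-KO label. Of the other members with a single half-site, Aen and Neil1 were higher at both ages by their brightest probes, and Trp53, Bax and Polk lower. These differences, and those of Ccng1, were each smaller than the members' median scanner error of log2 0.20. Other measured probes of Aen, Neil1 and Polk went the other way at 1 or both ages. Any link between half-sites and direction was not tested. The heptamer ACATCTG, the core of the sequence that Rp58 binds, was searched on both strands and occurred in 4.43% of all promoters and in those of 2 members, Mutyh and Neil1. Mutyh had levels of 0.278 and 0.273 at 4 months and of 0.319 and 0.317 at 18 months, WT first, and so hardly differed between genotypes. A match is a description of these letters and not a measured binding site. Trp53inp1, Rrm2b, Prkdc, Polb, Perp, Rad50, Zmat3, H2afx, Nbn, Ddb2, Fancd2 and Xpc were not matched in the table.

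In the damage sensors and repair genes, Gadd45a apart, no genotype difference reached an unadjusted p under 0.05. Their median absolute genotype difference was log2 0.07, where all genes gave 0.09. Among the kinases, Atm, which responds to double-strand breaks, had levels of 0.432 and 0.384 at 4 months and of 0.368 and 0.367 at 18 months, WT first. The array of WT at 4 months stood above the other 3. It did not stand apart by a dimmer Atm probe, also well above background on all 4 arrays. That probe gave genotype differences of log2 -0.03 at 4 months and 0.07 at 18 months. The probes of both checkpoint kinases, which carry the signal of ATM and ATR onward, were dim. Chek1 had levels of 0.0314 and 0.0345 at 4 months and of 0.0224 and 0.0263 at 18 months, so the hetero-KO array was higher at each age, but its other measured probe gave log2 0.21 at 4 months and -0.21 at 18 months. Chek2 had levels of 0.0147 and 0.0134 at 4 months and of 0.0110 and 0.0161 at 18 months, and its genotype order turned from log2 -0.13 to 0.55. Chek2 is dim enough that its genotype difference carried an SE of 0.28.

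The break-sensing MRN complex is formed by Mre11a, Rad50 and Nbn. Rad50 had levels of 0.681 and 0.602 at 4 months and of 0.680 and 0.727 at 18 months, and Nbn of 0.273 and 0.258, then 0.223 and 0.235. By these probes the genotype order of both genes turned with age. A dimmer Rad50 probe, well above background on all 4 arrays, did not turn, with log2 -0.04 at 4 months and -0.06 at 18 months. H2afx, the histone variant phosphorylated around breaks, had levels of 2.65 and 3.11 at 4 months and of 3.18 and 3.09 at 18 months. Its array of WT at 4 months was the lowest, and the other 3 lay within a narrow range.

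In homologous recombination and crosslink repair, Brca1 had levels of 0.0729 and 0.0669 at 4 months and of 0.0496 and 0.0401 at 18 months. The genotype difference of Brca1 was log2 -0.12 at 4 months and -0.31 at 18 months, but its other measured probe gave -0.15 and 0.05. Brca2, a mediator of homologous recombination, had levels of 0.372 and 0.326 at 4 months and of 0.343 and 0.310 at 18 months, WT first. It was lower with the hetero-KO label at both ages, log2 -0.17 ± 0.07 in the fit, with an adjusted p of 0.456. Fancd2, the monoubiquitinated hub of the Fanconi anaemia pathway, had levels of 0.0184 and 0.0236 at 4 months and of 0.0179 and 0.0187 at 18 months. The array labelled hetero-KO at 4 months was the highest, by log2 0.36 over WT of that age, with a fitted SE of 0.21.

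Of the nucleotide excision repair genes, Xpa, the damage verification factor, had levels of 3.47 and 2.94 at 4 months and of 3.24 and 3.23 at 18 months. The array labelled hetero-KO at 4 months was the lowest, log2 -0.24 below WT. Outside that pathway, Polh, the polymerase that bypasses ultraviolet lesions, had levels of 0.0259 and 0.0248 at 4 months and of 0.0278 and 0.0314 at 18 months. Its 4 arrays overlapped between genotypes.

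**Figure D3:**
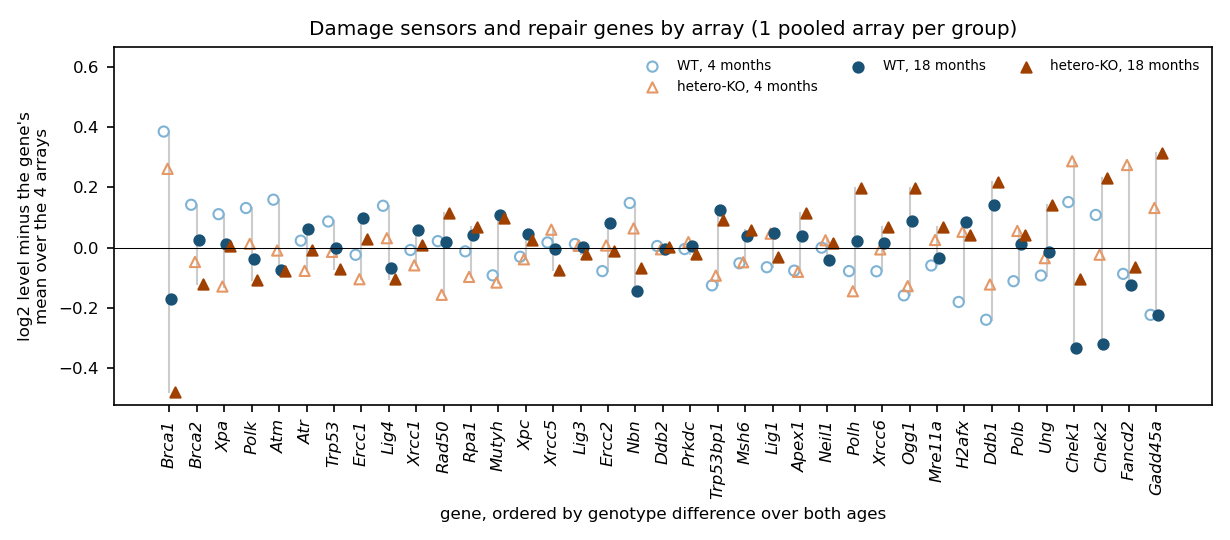
The vertical axis gives each damage sensor's or repair gene's log2 level minus its mean over the 4 arrays, with 1 point for each pooled array and genes ordered by their genotype difference. Gadd45a at the right has both hetero-KO arrays above both WT arrays, and for Brca1 at the left and Ddb1 near the right the 18-month arrays stand apart from the 4-month arrays, below for Brca1 and above for Ddb1.

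With age, the member that passed the test was Ddb1, the adaptor of the CUL4 ubiquitin ligase that acts in damage recognition for nucleotide excision repair. Its level was 12.2 in WT and 13.2 in the array labelled hetero-KO at 4 months, and the 18-month levels were 15.9 and 16.7. Both 18-month arrays lay above both 4-month arrays, and the level rose by log2 0.36 ± 0.04, or 1.28-fold, with an adjusted p of 0.0441 in limma with Benjamini-Hochberg adjustment. Ddb2, its partner that binds the damaged DNA, differed with age by log2 -0.001 ± 0.059. The call for Ddb1 ended with quantile normalization (log2 0.22, adjusted p = 0.101), and its adjusted p ranged from 0.0268 to 0.318 over the alternatives run. In all genes 1.47% rose and 0.65% fell at this threshold, and the split of 428 higher and 189 lower calls became 53 and 117 with quantile normalization.

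At an unadjusted p under 0.05, 6 members were higher and 4 lower at 18 months, where all genes gave 16.8% and 6.92%. Members were therefore no more frequent among the higher values than genes at large. Among those higher, Ogg1, the glycosylase that removes oxidised guanine, had levels of 0.852 and 0.870 at 4 months and of 1.01 and 1.09 at 18 months, WT first. Both older arrays lay above both younger ones, log2 0.29 ± 0.06, with an adjusted p of 0.0782. A second probe gave log2 0.27 and another, not well above background on any array, -0.43, so that the mean over its probes gave log2 0.04. Mutyh, the glycosylase that removes adenine paired with oxidised guanine, differed by log2 0.21 ± 0.07 with an adjusted p of 0.181. Apex1, the endonuclease that cuts the abasic sites left by glycosylases, had levels of 2.69 and 2.68 at 4 months and of 2.91 and 3.07 at 18 months. Its age difference was log2 0.16 ± 0.05, and all 3 of its probes were higher at 18 months. In the authors' deposited value table Ogg1, Mutyh and Apex1 turned to log2 -0.17, -0.043 and -0.11.

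Trp53bp1 encodes 53BP1, which steers breaks toward end joining. It had levels of 15.0 and 15.3 at 4 months and of 17.8 and 17.4 at 18 months. Both older arrays lay above both younger ones, log2 0.22 ± 0.04, with an adjusted p of 0.0690, but the value was 0.08 with quantile normalization. Lig4, the ligase of end joining, was lower at 18 months. Its levels were 0.910 and 0.845 in the younger arrays and 0.789 and 0.769 in the older ones, WT first, and the difference was log2 -0.17 ± 0.06 with an adjusted p of 0.182. Both Lig4 probes gave nearly the same difference, -0.17 and -0.18.

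Brca1 and Chek1, which serve replication and recombination, had the largest negative age differences of the members. Brca1 differed by log2 -0.65 ± 0.13 with an adjusted p of 0.0771, being -0.56 in WT and -0.74 between the arrays labelled hetero-KO. A dimmer Brca1 probe gave log2 0.11 in WT and 0.31 between the arrays labelled hetero-KO, so the probes disagreed. Chek1 differed by log2 -0.44 ± 0.17 with an adjusted p of 0.210, and its other measured probe gave -0.47. With normexp background correction the value for Chek1 was log2 -0.09 and that for Brca1 -0.31, and Brca1 gave -0.01 over the mean of its probes and -0.04 in the authors' deposited value table. Of the markers of dividing cells measured on all arrays, 6 of 12 were lower at 18 months in WT (median log2 -0.04) and 8 of 12 between the arrays labelled hetero-KO (median log2 -0.44). Mki67 and Top2a passed the test and fell by 0.67 and 1.52 on the log2 scale (adjusted p = 0.0497 and 0.0386), while the replication licensing genes Mcm2, Mcm3, Mcm5 and Mcm6 had differences of 0.19, 0.13, 0.11 and 0.15 that missed it. The summed level of the 14 markers was 4.66 and 4.44 at 4 months and 4.91 and 4.37 at 18 months, WT first. Bub1 was not well above background on any array, nor was Cdk1 in the array labelled hetero-KO at 18 months. The part of this in the values of Brca1 and Chek1 was not tested.

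Of the p53 targets, Ccng1 was lower at 18 months, log2 -0.17 ± 0.05 with an adjusted p of 0.138, and 0.11 in the value table. Aen, an apoptosis-enhancing nuclease, had levels of 4.23 and 4.42 at 4 months and of 4.54 and 5.03 at 18 months, WT first, and was higher by log2 0.14 ± 0.05 (adjusted p = 0.170), or by 0.07 with quantile normalization. Its other probes gave log2 0.16, 0.01, -0.02 and -0.04, and the mean over its probes gave 0.05. The age difference of Cdkn1a was log2 -0.10 in WT and 0.23 between the arrays labelled hetero-KO, and that of Mdm2 was 0.05 and 0.08. Microglial markers were higher with age for 12 of 12 genes in each genotype. Their summed level was 51.2 and 53.6 at 4 months and 73.0 and 84.4 at 18 months, WT first, with none below the detection limit. Markers of thalamus and habenula went from summed levels of 40.3 and 34.0 to 16.6 and 17.1, with Gbx2 not well above background at 18 months. Xist was well above background in both genotypes at 4 months and in neither at 18 months. Age and any sex difference between the pools cannot be told apart. The part of these markers in the age differences of the members was not tested.

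By size, no member reached 1.5-fold with age in WT, where 2.55% of all genes were higher and 2.72% lower. Among the 50 members measured on both arrays labelled hetero-KO, Brca1 was at least 1.5-fold lower and none was higher, against 3.05% and 3.68% of all genes. Eda2r, measured only on the older of these arrays, lies outside that count. The sign of the age difference was shared by both genotypes in 37 of 50 members, or 74.0%, where all genes gave 69.1%. The median age difference was log2 0.06 over the targets, 0.05 over the sensors and repair genes and 0.04 over all genes, and that of the targets was -0.07 in the value table.

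**Figure D4:**
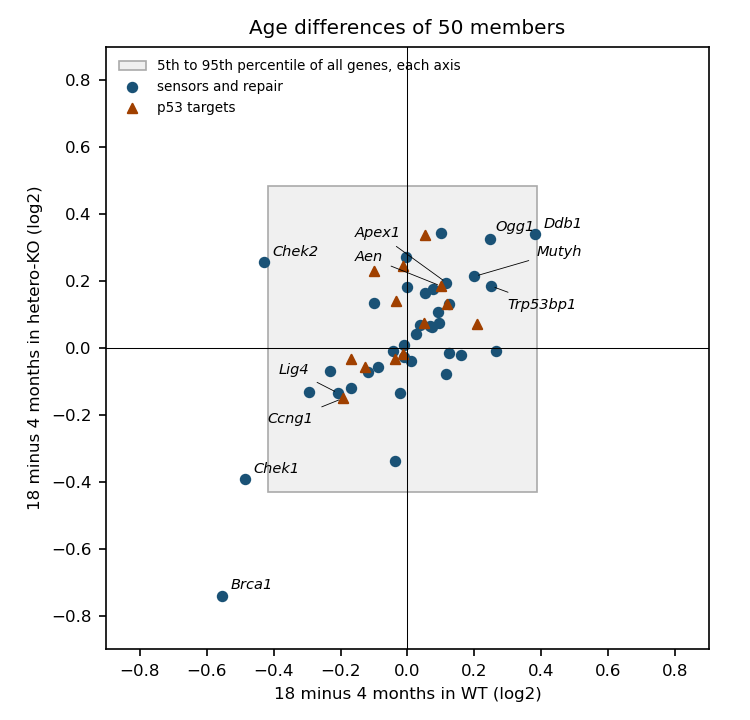
Each point is 1 of the 50 members measured on all 4 arrays, with the log2 difference of 18 minus 4 months in WT on the horizontal and between the arrays labelled hetero-KO on the vertical axis. Named genes had an unadjusted p under 0.05 in the age fit or lie outside the grey box, which spans the 5th to the 95th percentile of all genes on each axis; Ddb1 and Ogg1 lie at the upper right, Brca1 and Chek1 at the lower left.

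The difference of differences, genotype by age, uses up all 4 arrays and was not tested. Its median absolute size was log2 0.08 over the 50 members and 0.12 over all genes. Chek2 had the widest gap between the ages among them, log2 0.68. The remaining 23 members, described by range, were Atr, Mre11a, Xrcc1, Xrcc5, Xrcc6, Prkdc, Lig1, Lig3, Ung, Neil1, Msh6, Ercc1, Ercc2, Xpc, Ddb2, Polb, Polk, Rpa1, Aen, Bax, Sesn2, Rrm2b and Zmat3. They include the Ku subunits and the catalytic subunit of DNA-PK, the ligases of base excision repair, mismatch repair and the excision nuclease subunits. Every one of their single differences lay between log2 -0.17 and 0.18. Their fitted genotype differences lay between log2 -0.11 and 0.15 and their age differences between -0.14 and 0.14.

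Several members have more than 1 probe, and these did not always give the same answer. The members had 110 probes, of which 99 were well above background on all arrays. Among the 29 members with more than 1 such probe, all probes shared the sign of the genotype difference in 16 and of the age difference in 13. For genotype, the 8 probes of Atr ranged from log2 -0.26 to 0.18, with the others at -0.09, -0.08, -0.02, 0.01, 0.06 and 0.07. The 3 probes of Polh gave 0.06, -0.33 and 0.03 for genotype and 0.22, -0.24 and -0.33 for age. For age, those of Brca2 gave -0.10, 0.13 and -0.22, and those of Mutyh 0.21 and -0.14. The 5 probes of Trp53bp1 gave 0.22, -0.07, -0.04, 0.01 and 0.26 for age, so the brightest of them and the dimmest were higher at 18 months and the others near 0.

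**Figure D5:**
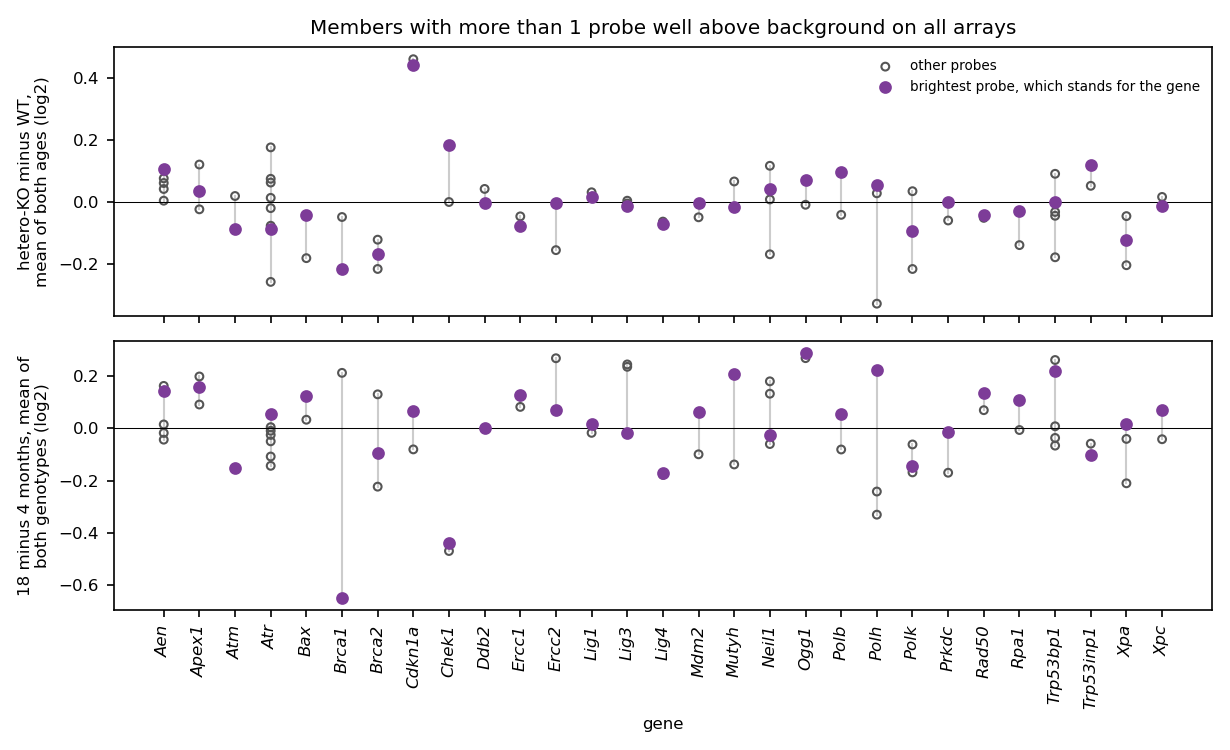
Each column is 1 of the 29 members with more than 1 probe well above background on all 4 arrays; the upper panel gives the log2 genotype difference averaged over both ages and the lower panel the log2 age difference averaged over both genotypes. Filled points are the brightest probes, which stand for the gene, and open points the others: the probes of Ogg1, Chek1 and Lig4 lie together in the lower panel, and those of Brca1 and Polh lie on both sides of 0.

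Other genes of the pathway, from lists that hold none of the members, gave the setting for these values. Of 82 other repair genes, 81 were tested. With age, 16 lay higher and 0 lower below an unadjusted p of 0.05, beside 16.8% and 6.92% of all genes, and Atrip, the partner of the kinase ATR, passed the adjusted test. Atrip had levels of 1.24 and 1.21 at 4 months and of 1.75 and 1.69 at 18 months, and rose by log2 0.49 ± 0.05 (adjusted p = 0.0432). Both older arrays lay above both younger ones. Its call ended with quantile normalization (adjusted p = 0.0575) and under 5 other alternatives, and the difference was log2 0.03 in the value table. For genotype, 2 were higher and 3 lower at that unadjusted p and none passed. The highest values were those of Dclre1c (0.21), Bard1 (0.19) and Rad51c (0.15), and the lowest those of Neil3 (-0.40), Palb2 (-0.39) and Clspn (-0.31), on the log2 scale.

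Of 36 other p53 targets, 12 lay higher and 2 lower with age below an unadjusted p of 0.05, beside the same 16.8% and 6.92% of all genes. Btg2, an antiproliferative gene that is also an immediate early gene, had levels of 0.620 and 0.663 at 4 months and of 0.439 and 0.446 at 18 months, WT first. It passed the adjusted test and fell by 0.54 on the log2 scale with age (adjusted p = 0.0463). The call ended with quantile normalization (adjusted p = 0.0685), and the difference turned to 0.73 in the value table. It also ended without the filter on dim genes, over the mean of probes, without the variance trend and without the genotype term. For genotype, 5 lay on either side below that unadjusted p and none passed. The log2 genotype difference was 0.28 for Ddit4l and 0.24 for Epha2, and -0.39 for Gdf15, -0.39 for Pmaip1 and -0.28 for Pltp. Immediate early genes, Btg2 among them, were higher with the hetero-KO label for 11 of 12 at 4 months and 9 of 12 at 18 months, with summed levels of 59.4 and 74.6, then 64.3 and 72.5, WT first. The part of this in the p53 targets was not tested.

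Of 20 p53 regulators and relatives, 8 lay higher and 1 lower with age below an unadjusted p of 0.05, where all genes gave 16.8% and 6.92%. Cdkn2a, which encodes the Mdm2 inhibitor ARF and the cyclin-dependent kinase inhibitor p16, passed the adjusted test (adjusted p = 0.0340), a call that ended over the mean of its probes (adjusted p = 0.123), without the filter on dim genes and without the variance trend. It was not well above background in either array at 4 months and had levels of 0.0445 in WT and 0.0387 in the array labelled hetero-KO at 18 months. That is at least 7.73-fold higher in WT and at least 5.76-fold higher between the arrays labelled hetero-KO. Which of its transcripts the probe reads was not analysed here. For genotype none passed, and the values ranged from Trp73 (-0.24) and Hipk2 (-0.10), with Cdkn2a at -0.55 from arrays in part below the detection limit, to Cop1 (0.06), Ppp1r13l (0.13) and Rrm2 (0.28), a ribonucleotide reductase subunit of dividing cells.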

How the data were processed

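Hippocampal RNA of 4 groups was measured on 4 one-colour Agilent arrays, 1 per group, each of RNA pooled from 3 samples per the labels' protocols. The deposited scanner files hold intensity on a linear scale. Their background-corrected signal was made with Agilent Feature Extraction 11.5.1.1, per the file headers, and the probe coordinates are in mm9. The authors' deposited value table holds a ratio of signal to the array's 75th percentile. Its 4-month columns equal the scanner files within 1% and its 18-month columns match none of them (highest correlation of log2 values 0.982), so it served only as an alternative. The medians of its columns were 0.107, 0.103, 0.0998 and 0.0987, it is not log-scaled or centred by gene, and the origin of its 18-month columns is unknown.

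Values were log2 signal minus each array's 75th percentile, without control and outlier spots. Of 56605 probes, 32994 matched RefSeq names, and a gene took its brightest probe by mean level. A gene was measured on an array where the scanner software called 50% or more of its spots well above background, and genes measured on at least 2 arrays were tested with limma 3.58.1 in R 4.3.3 (eBayes with variance trend, Benjamini-Hochberg threshold 0.05). The number of arrays limits the precision. Spots of 299 repeated probes had a median SD of 0.03 on the log2 scale. The script was tested on simulated data. Members and lists were chosen with earlier results of these data known. Full values are given for the 25 members measured on all 4 arrays with the largest difference between arrays that differ in age or genotype alone, and for Trp53, Cdkn1a, Mdm2 and Zbtb18. Other lists give genes past the test, or otherwise the 3 largest differences in each direction. The values of 1 listed gene are not reported here. Alternatives were normexp background, quantile normalization, other filters on dim probes, the mean of a gene's probes, no variance trend, models without the other term, other folds and the value table.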

Additional observations from a re-analysis of the deposited data

Results flagged for a closer look

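Eda2r was flagged because its genotype difference had opposite signs at the 2 ages. The log2 difference of hetero-KO minus WT at 18 months exceeded that at 4 months by 1.79, being 1.17 at 18 months and -0.61 at 4 months. The difference between the ages was not tested, and the array labelled hetero-KO at 4 months was not well above background, so that WT was at least 1.44-fold higher at that age.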

How the results depend on the processing

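No paired analysis was possible because the labels carry no replicate numbers and each group is 1 array. Leaving out an array was not run, since 3 arrays leave the model no residual degree of freedom. For genotype, 3 genes were called, against 14 with normexp background, 10 among genes measured on all 4 arrays, 8 in the value table, 1 over the mean of a gene's probes, 1 without the age term, and 0 either with no filter on dim genes or with no variance trend. No member was called for genotype under any of these. Members at an unadjusted p under 0.05 for genotype numbered 6, and 3 without the variance trend. For age, 617 genes were called, against 1453 with normexp, 170 with quantile normalization, 13 over the mean of probes, 123 without the genotype term, 9903 in the value table, and 0 without the filter or the trend. The 1 member called for age, Ddb1, was called by limma with normexp, among genes measured on all arrays and in the value table, where 19 members were called. The count was 0 with quantile normalization, without the filter, over the mean of probes, without the trend and without the genotype term, while Ddb1 kept its direction. Members at an unadjusted p under 0.05 for age numbered 10, against 6 over the mean of probes, 6 without the trend, 6 without the genotype term and 28 in the value table. Members past 1.5-fold between genotypes numbered 0 at 4 months (4 past a log2 difference of 0.32) and 3 at 18 months (0 with normexp, 1 in the value table, 1 at 2-fold, 6 past a log2 difference of 0.32). With age they numbered 0 in WT (2 over the mean of probes, 5 in the value table, 4 past a log2 difference of 0.32) and 1 between the arrays labelled hetero-KO (0 with normexp, over the mean of probes and at 2-fold, 4 in the value table, 7 past a log2 difference of 0.32). Past 0.32 between genotypes, all genes gave 1470 higher and 2694 lower of 28408 at 4 months. At 18 months they gave 1704 and 2311 of 27625. With age they gave 2340 and 2237 of 28271 in WT, and 3048 and 2145 of 27613 between the arrays labelled hetero-KO. Directions turned for the genotype difference of Gadd45a over the mean of probes (log2 -0.51). In the value table they turned for the age differences of Ogg1 (-0.17), Apex1 (-0.11), Mutyh (-0.043), Ccng1 (0.11), Btg2 (0.73) and Bcl2 (0.87) and for Eda2r between genotypes at 18 months (-0.45). The 18-month columns of the value table match none of the arrays analysed here. Its age and 18-month values therefore do not show the effect of processing alone. The cause of the changes under any alternative was not tested. Dim genes such as Chek2, Fancd2, Polh and Eda2r are limited by their signal over background.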

Other observations

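The Bcl2 family decides whether a cell enters apoptosis through mitochondria, and the p53 targets Bax and Bbc3 belong to it. Other members of the family were listed separately. Of 14 such genes 13 were on the array. With age, Bcl2l1, which encodes the survival factor BCL-XL, rose by log2 0.28 ± 0.04 in limma with Benjamini-Hochberg adjustment (adjusted p = 0.0484), with levels of 16.7 and 17.0 at 4 months and of 20.3 and 20.7 at 18 months, WT first. Bcl2, another survival factor, fell by 0.48 on the log2 scale (adjusted p = 0.0479), from 0.931 and 1.05 to 0.639 and 0.779. Both calls ended with quantile normalization (log2 0.13 and adjusted p = 0.184 for Bcl2l1, adjusted p = 0.0755 for Bcl2), without the filter on dim genes, over the mean of probes, without the variance trend and without the genotype term. In the value table Bcl2l1 gave log2 0.07 and Bcl2 turned to 0.87. For both genes the older arrays did not overlap with the younger ones. Between genotypes none passed, and the values ranged from Pmaip1 (-0.39), Bad (-0.07) and Bik (-0.06) to Hrk (0.16), Bcl2 (0.23) and Bok (0.34). Bok was highest in the array labelled hetero-KO at 18 months, 11.1 against 6.97 to 7.24 in the others.

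Relatives of Gadd45a, the sestrins and Cdkn1a were also measured, and none of these 8 genes passed the adjusted test. Cdkn1c, which encodes the cyclin-dependent kinase inhibitor p57, had levels of 3.62 and 2.69 at 4 months and of 5.38 and 2.71 at 18 months, WT first. It was lower with the hetero-KO label at both ages, log2 -0.71 ± 0.14 (adjusted p = 0.260), opposite in sign to Cdkn1a. Cdkn2b (-0.24) and Cdkn2c (-0.17) were also lower. Gadd45b, a stress gene also induced by neuronal activity, had levels of 1.48 and 1.94 at 4 months and of 1.34 and 1.65 at 18 months. It was higher with the hetero-KO label at both ages, log2 0.34 ± 0.05 (adjusted p = 0.215), as were Cdkn2d (0.10) and Gadd45g (0.10). With age the highest values were those of Cdkn2b (0.41), Cdkn1c (0.29) and Cdkn2d (0.22), and the lowest those of Gadd45b (-0.19), Sesn3 (-0.18) and Gadd45g (-0.13).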
